A study of Mus musculus with 12 samples.

Results

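A set of 10 genes of the translation machinery and of the 5′ terminal oligopyrimidine (TOP) class, other than ribosomal protein genes, were followed across 12 mRNA libraries of mouse cells. The members are Eef1a1, Eef1b2, Eef1d, Eef1g, Eef2, Tpt1, Pabpc1, Gas5, Snhg1 and Snhg8. They were chosen by symbol, linked through their Ensembl identifiers to the gene counts, and all 10 were found among the 21728 genes of the count data. The cells were C57BL/6 mouse embryonic stem cells of genotype Blimp1-mVenus; Stella-ECFP (BVSC), in which fluorescent reporters mark the germ cell genes Prdm1 and Dppa3. They were cultured for 48 h as epiblast-like cells (EpiLCs), and aggregates of EpiLCs were then grown in primordial germ cell-like cell (PGCLC) medium. There were 4 groups of 3 libraries: day 5 PGCLCs of the arm labelled 100 nM bisphenol A (BPA), untreated day 5 PGCLCs, EpiLCs exposed to 100 nM BPA, and untreated EpiLCs. EpiLC exposure began 24 h after seeding and lasted 24 h; the labels leave unsaid if the PGCLC medium held BPA too. All 4 groups carry both reporters, and both PGCLC groups were sorted for cells positive for both. The model is an in vitro derivation, and the labels name neither a clone number nor separate cultures behind the replicates, so p-values measure only the spread between these libraries, which may be technical.

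TOP mRNAs begin with a cytosine at the cap followed by a run of pyrimidines, and the growth-regulating kinase complex mTORC1, acting through the cap-binding repressor LARP1, sets how well they are translated and how stable they are. The class holds the ribosomal protein mRNAs, elongation factors, the poly(A)-binding protein mRNA and host genes of small nucleolar RNAs (snoRNAs). In elongation, eEF1A brings aminoacyl-tRNA to the ribosome, the eEF1B complex reloads eEF1A with GTP, and eEF2 moves the ribosome along the mRNA. Gas5, Snhg1 and Snhg8 are noncoding: their introns carry snoRNAs, which guide modification of ribosomal RNA, and spliced Gas5 RNA is a classical target of nonsense-mediated decay.

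The annotated starts of the 10 genes show how the TOP feature is spread among them. The first 20 bases of 1 GENCODE M21 (mm10) transcript of each gene are given 5′ to 3′, taken from a transcript with a TOP start where the gene has one, with capitals for the unbroken run of pyrimidines (C or T) that begins at base 1; Eef2 has none.
Eef1a1: TTCCCgagggtgggggagaa
Eef1b2: CCTTTTTTTCCCTCagcgct
Eef1d: CTCTCCTTTgcagtcctgag
Eef1g: TTTCCaactcagcggggctg
Eef2: gttgacgtcagcggtctctt
Tpt1: CTTTTCCgcccgctcccccc
Pabpc1: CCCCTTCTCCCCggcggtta
Gas5: CTTTCggagctgtgcggcat
Snhg1: CTCatttttccttgttcggg
Snhg8: CCCTCgcgcgcaggctcttg
All lie in a first exon. The stretches are chr9:78481705-78481724 (minus strand) for Eef1a1, chr1:63177129-63177148 (plus) for Eef1b2, chr15:75909287-75909306 (minus) for Eef1d and chr19:8967041-8967060 (plus) for Eef1g. They are chr10:81176631-81176650 (plus) for Eef2, chr14:75845331-75845350 (plus) for Tpt1 and chr15:36608954-36608973 (minus) for Pabpc1. The noncoding members start at chr1:161035166-161035185 (plus) for Gas5, chr19:8723487-8723506 (plus) for Snhg1 and chr3:123508385-123508404 (minus) for Snhg8.

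A transcript was counted as TOP where its sense strand starts with C followed by at least 4 bases that are C or T. By that rule 6 of the 10 genes (60%) have at least 1 annotated transcript with a TOP start: Eef1b2, Eef1d, Tpt1, Pabpc1, Gas5 and Snhg8, with runs of 14, 9, 7, 12, 5 and 5 bases. The shares were 43.6% of 78 cytosolic ribosomal protein genes, 45% of 20 other known TOP mRNAs and 8.21% of 21695 genes in the files. They are not on equal terms, since the median number of annotated transcripts was 8.5 for the 10 genes, 6 for ribosomal protein genes and 3 for all genes. Among the TOP starts printed, the transcript is annotated as nonsense-mediated decay for Eef1b2 and as retained intron for Tpt1 and Gas5. In Eef1d 1 of 18 transcripts meets the rule, and in Tpt1 1 of 8. The printed start is that of the representative transcript for Pabpc1, whereas it lies 304 bases downstream of it for Eef1b2, 238 for Tpt1, 237 for Gas5 and 49 for Eef1d. On representative transcripts alone, the share was 20% of the 10 genes, 10.3% of the ribosomal protein genes and 2.20% of all genes. In the RefSeq promoter table (GRCm38.p6), 7 of the 10 genes had an entry, and Eef1d, Eef1g and Pabpc1 had none. Gas5 and Snhg8 meet the rule at a RefSeq start itself, as do 3.01% of 27025 genes and 22.4% of 58 ribosomal protein genes there. Eef1a1 meets it only within 5 bases of a start, where 21.2% of all genes and 46.6% of the ribosomal protein genes do. Eef1b2, Eef2, Tpt1 and Snhg1 do not meet it at or within 5 bases of a RefSeq start. The Eef1a1 and Eef1g starts open with T, and Snhg1 has a run of 3 bases; no match says only that these letters are not at the annotated start.

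Between 11785338 and 34309195 counts per library were assigned to genes, and the members had 287 to 386114 counts in a library. Germ cell markers followed the labels. The 6 of them summed to 589 to 650.1 CPM (counts scaled to library size) in BPA-arm PGCLCs and 703 to 817 CPM in untreated PGCLCs. They summed to 39.6 to 43.6 CPM in BPA EpiLCs and 39.5 to 49.2 CPM in untreated EpiLCs. Endoderm markers (13) also parted the stages, at 889.8 to 1401 CPM in untreated PGCLCs and 13.5 to 22.6 CPM in untreated EpiLCs. Mesoderm markers summed to 136 to 169 and 7.49 to 10.5 CPM in the same groups. The 6 EpiLC markers summed to 385 to 415 CPM in untreated PGCLCs and 1284 to 1538 CPM in untreated EpiLCs. The part of these markers in the stage differences was not tested. Untreated EpiLC replicate 3 stood apart from its group: 14.2% of its counts fell in ribosomal protein genes, and 8.29% to 9.35% did so in the other 5 EpiLC libraries. Its description also carries another replicate number than its title, and the title was followed. Values without it are given beside the results that it touches. The library names of the PGCLC arms follow different naming schemes, and a summary row for reads aligned to more than 1 place is present in the 3 BPA-arm PGCLC files and absent from the untreated PGCLC files, so handling of the libraries and arm cannot be told apart. In bulk libraries, fewer cells of a type and less RNA per cell cannot be told apart either.

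Together the 10 genes took 2.10% to 2.20% of gene counts in BPA-arm PGCLCs and 2.22% to 2.28% in untreated PGCLCs, against 2.62% to 2.75% in BPA EpiLCs and 2.68% to 2.85% in untreated EpiLCs. Per length of merged exons, the order of levels was led in every group by Eef1a1, then Eef2, then Tpt1. Eef1a1, which carries aminoacyl-tRNA, averaged 4561 ± 176 CPM per kilobase (RPKM) in BPA-arm PGCLCs, 4827 ± 104 in untreated PGCLCs, 5302 ± 158 in BPA EpiLCs and 5559 ± 229 in untreated EpiLCs (SD, n = 3 each). The snoRNA hosts Gas5, Snhg1 and Snhg8 were the 3 lowest in every group, from 10.7 RPKM (Snhg8, BPA-arm PGCLCs) to 69.8 RPKM (Gas5, untreated EpiLCs); their merged exons hold retained introns, so RPKM depends on that length. In both PGCLC groups Pabpc1 ranked above Eef1g and Eef1b2, and in both EpiLC groups below them. Neighbours in the order whose libraries overlapped were Snhg1 and Snhg8 in both PGCLC groups, Tpt1 and Eef1g as well as Gas5 and Snhg1 in both EpiLC groups, and, in untreated EpiLCs alone, Eef1g and Eef1b2, Eef1d and Gas5, and Snhg1 and Snhg8.

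**Figure D1:**
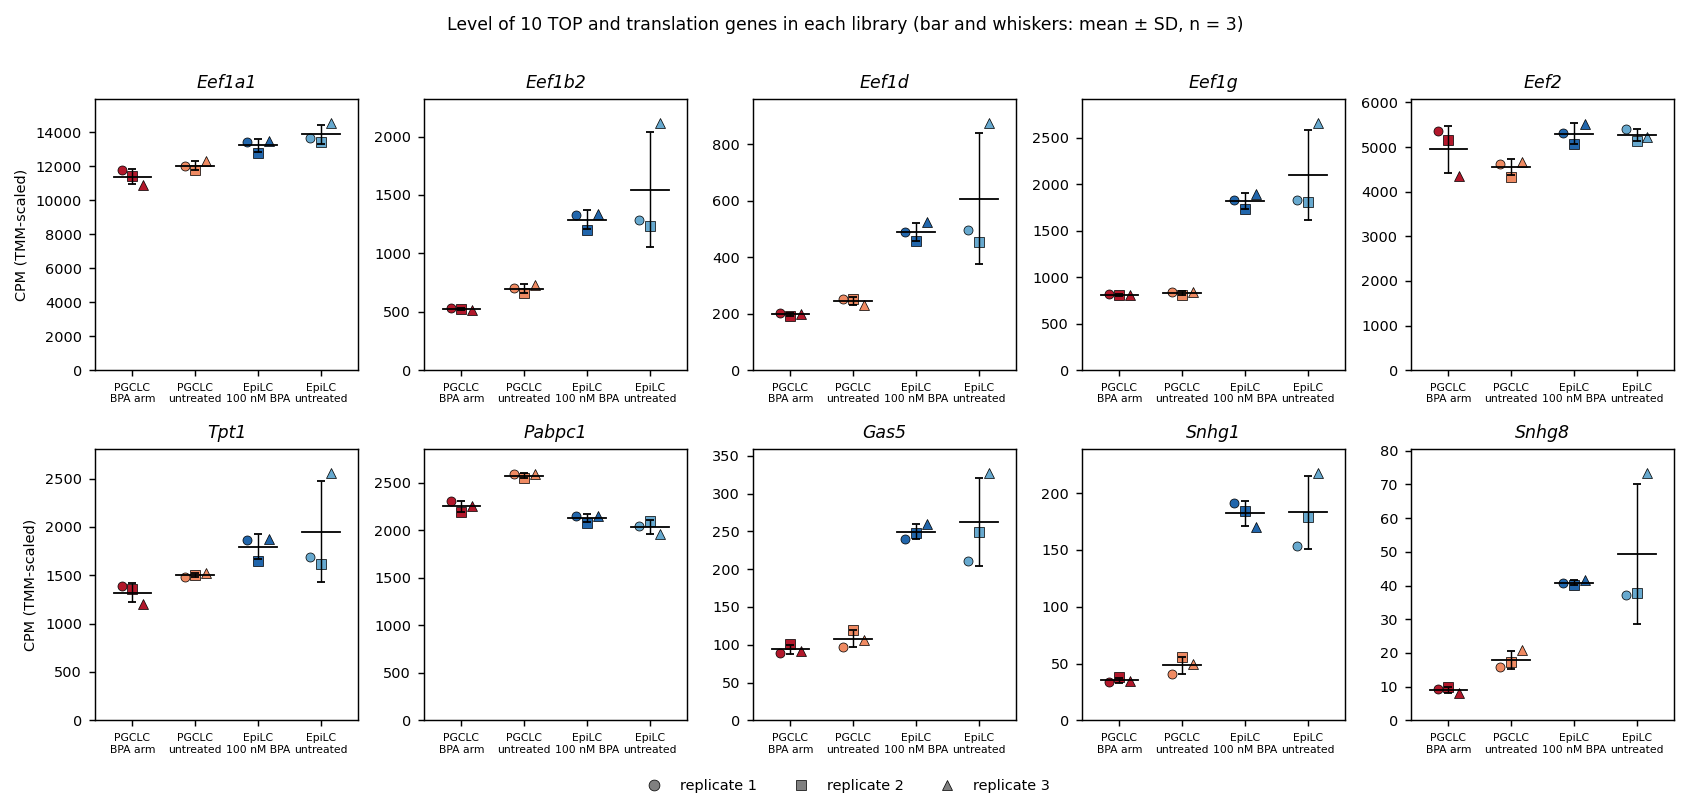
Level of each gene in CPM (y axis, from 0, TMM-scaled over 12 libraries) in each library, by group and replicate symbol; horizontal bars and whiskers are mean ± SD, n = 3. Eef1b2, Eef1d, Eef1g and the 3 snoRNA hosts sit lower in all 6 PGCLC libraries than in all 6 EpiLC libraries, and the triangle of untreated EpiLC replicate 3 stands above its group for 8 genes.

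PGCLCs held less RNA of the eEF1B subunits and of the snoRNA hosts than EpiLCs, while Pabpc1 was higher. In untreated cells, 9 of the 10 genes were called lower in PGCLCs and 1 higher, at an adjusted p under 0.05 by edgeR's quasi-likelihood test; over all 17608 genes tested, 55.6% were called, 25.2% lower and 30.4% higher. The members' median log2 change was -1.21, beside 0.07 over all genes. Without untreated EpiLC replicate 3, 8 were called lower and 1 higher, beside 50.8% of all genes, 24.3% lower and 26.5% higher.

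Among the elongation factors, all 3 eEF1B subunits fell. Eef1g, the scaffold subunit of eEF1B, had 840.0, 804 and 842 CPM in untreated PGCLCs, against 1836, 1809 and 2656 CPM in untreated EpiLCs. The groups did not overlap, and the log2 change was -1.34 ± 0.13 (SE, adjusted p = 4.09e-06). Eef1d, a nucleotide exchange subunit, had 254, 254 and 230.3 CPM in untreated PGCLCs, against 495, 453 and 875 CPM in untreated EpiLCs, a log2 change of -1.31 ± 0.20 (adjusted p = 0.000153). Eef1b2, the other exchange subunit, had 703, 662 and 733 CPM in untreated PGCLCs, against 1286, 1234 and 2113 CPM in untreated EpiLCs, a log2 change of -1.14 ± 0.17 (adjusted p = 0.000124). For all 3 subunits replicate 3 was the highest EpiLC library, and without it the changes were -1.19 for Eef1g, -0.996 for Eef1d and -0.90 for Eef1b2, each still called. Exons of Eef1d share 277 bases with Naprt and those of Eef1b2 share 176 with Gm27390, on the same strand, so reads there are uncertain.

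Eef1a1 and Eef2, the abundant carrier and translocase, had smaller changes. Eef1a1 had 12023, 11779.6 and 12299 CPM in untreated PGCLCs, against 13625, 13441 and 14510.0 CPM in untreated EpiLCs, a log2 change of -0.20 ± 0.06 (adjusted p = 0.0147; 0.0513 without untreated PGCLC replicate 2). Eef2 had 4629.8, 4339 and 4662 CPM in untreated PGCLCs, against 5412, 5141 and 5234 CPM in untreated EpiLCs, and its call at -0.21 ± 0.08 (adjusted p = 0.0471) was lost without any 1 of EpiLC replicates 1 and 2 and PGCLC replicates 1, 2 and 3 (adjusted p from 0.0601 to 0.14). The Eef2 call was also lost with no filter on low counts (adjusted p = 0.0629). Without EpiLC replicate 3 Eef1a1 changed by -0.22 and Eef2 by -0.26, both called. The untreated groups did not overlap for any of the 10 genes, 9 being lower in PGCLCs and 1 higher, beside 28.2% of all genes lower without overlap and 32.1% higher.

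Tpt1, which codes for the abundant growth-related protein TCTP, had 1480.0, 1505 and 1520.5 CPM in untreated PGCLCs, against 1690.3, 1612 and 2553 CPM in untreated EpiLCs. Its log2 change of -0.38 ± 0.15 (adjusted p = 0.0471) became -0.19 without EpiLC replicate 3 (adjusted p = 0.0775) and was also not called without PGCLC replicate 1, 2 or 3 (adjusted p from 0.0928 to 0.107). Nor was it called by limma voom (adjusted p = 0.0564). Tpt1 has 6 annotated pseudogenes named after it, so its count is uncertain where reads fit both. Only pseudogenes that carry a member's symbol were searched for, so copies under other names were not counted for any member. Pabpc1, the cytoplasmic poly(A)-binding protein, went the other way, with 2586, 2545 and 2586 CPM in untreated PGCLCs, against 2044, 2098 and 1954 CPM in untreated EpiLCs, a log2 change of 0.34 ± 0.06 (adjusted p = 0.000763), or 0.26 without EpiLC replicate 3.

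All 3 noncoding members were lower in PGCLCs. Snhg1 had 40.4, 55.6 and 49.4 CPM in untreated PGCLCs, against 153, 179 and 217 CPM in untreated EpiLCs, a log2 change of -1.92 ± 0.15 (adjusted p = 6.33e-07). Snhg8 had 15.7, 17.4 and 20.96 CPM in untreated PGCLCs, against 37.1, 37.7 and 73.2 CPM in untreated EpiLCs, a log2 change of -1.45 ± 0.23 (adjusted p = 0.00025), or -1.10 without EpiLC replicate 3. Gas5 had 97.2, 119.7 and 106 CPM in untreated PGCLCs, against 211, 249 and 326 CPM in untreated EpiLCs, a log2 change of -1.28 ± 0.14 (adjusted p = 1.47e-05). Without EpiLC replicate 3 the changes of Snhg1 and Gas5 were -1.82 and -1.14. No PGCLC library reached the lowest EpiLC library for any of the 3. Their exons share 746 (Gas5), 622 (Snhg1) and 130 (Snhg8) bases with annotated small RNA genes on the same strand, and ambiguous reads there were not assigned to a gene.

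**Figure D2:**
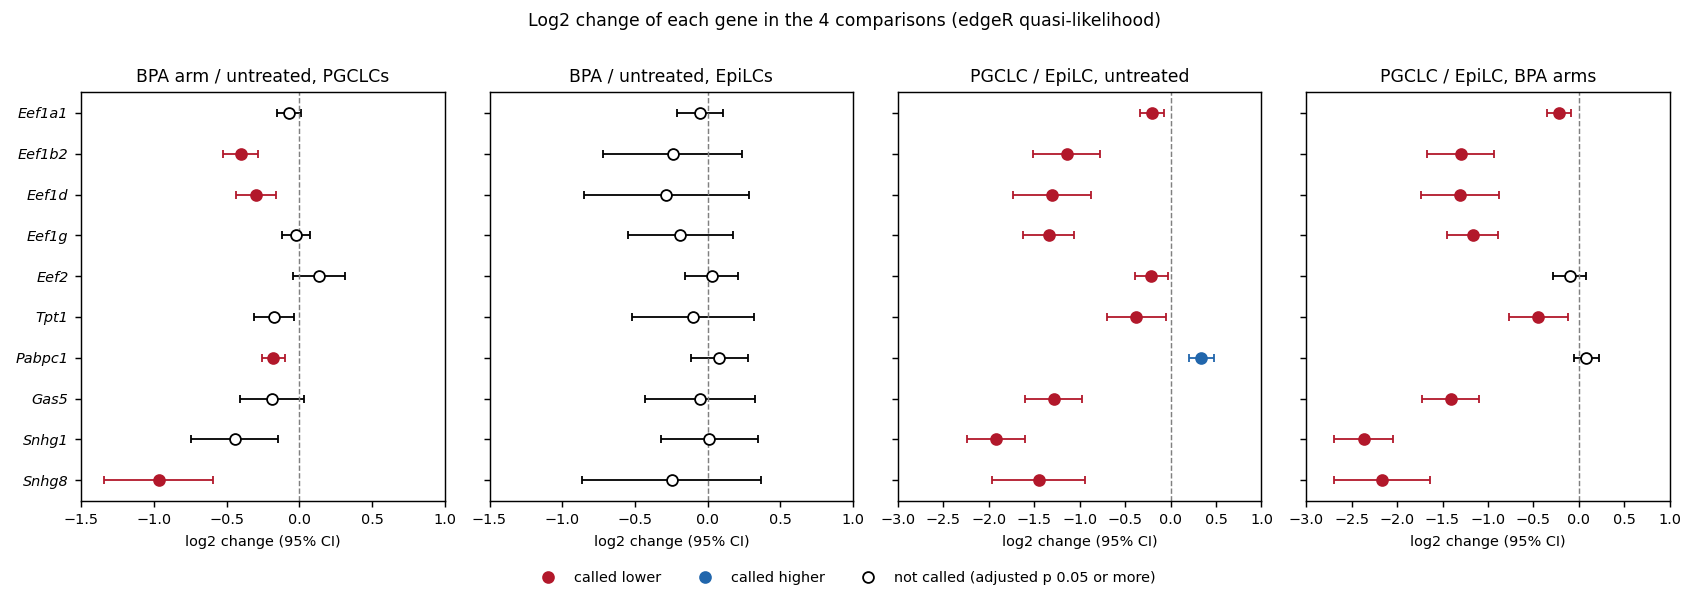
Log2 change with its 95% confidence interval (x axis) for each gene (rows) in the 4 comparisons; filled red is called lower, filled blue called higher and open not called. All 10 genes are called in untreated cells between stages, 8 between the BPA arms, 4 in PGCLCs and 0 in EpiLCs under BPA.

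The BPA arms gave the stage comparison with other libraries. Of the 10 genes, 8 were called lower in BPA-arm PGCLCs than in BPA EpiLCs and none higher, beside 57.5% of 17608 genes called, 25% lower and 32.5% higher. Snhg1 had 33.7, 37.8 and 34.5 CPM in BPA-arm PGCLCs, against 191, 185 and 170.4 CPM in BPA EpiLCs, a log2 change of -2.37 ± 0.15 (adjusted p = 1.1e-07). Snhg8 changed by -2.16 ± 0.24, Gas5 by -1.41 ± 0.14, Eef1d by -1.31 ± 0.20, Eef1b2 by -1.30 ± 0.17 and Eef1g by -1.17 ± 0.13 on the log2 scale, with adjusted p from 5.89e-06 to 0.000131. Tpt1 changed by -0.45 ± 0.15 (adjusted p = 0.0224; 0.0685 to 0.0792 without BPA EpiLC replicate 1 or 3 or BPA-arm PGCLC replicate 3), and Eef1a1 by -0.22 ± 0.06. Pabpc1 (0.08 ± 0.06) and Eef2 (-0.10 ± 0.08) were not called; the 95% intervals were -0.06 to 0.22 and -0.28 to 0.08. Pabpc1 was nonetheless higher in all 3 BPA-arm PGCLC libraries than in any BPA EpiLC library, as were 40.5% of all genes, and the 8 called genes were lower without overlap, as were 32.7%.

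Transcript length moved with the stage difference, with the deviation of untreated EpiLC replicate 3 and, less widely, with the BPA change in PGCLCs. Snhg8 stood 0.97, Eef1d 0.88, Eef1b2 0.75, Tpt1 0.63, Eef1g 0.54, Gas5 0.51 and Snhg1 0.39 higher in that library than in the mean of EpiLC replicates 1 and 2, on the log2 scale. Eef1a1 (0.10), Eef2 (-0.01) and Pabpc1 (-0.08) stayed near those replicates. Over all genes, the same deviation had a median of 0.83 for transcripts of up to 750 bases and -0.58 for those above 4500 bases. In these classes the untreated stage difference had medians of -0.71 and 0.50, and the BPA change in PGCLCs had medians of -0.38 and 0.04. The stage difference between the BPA arms, which compares groups without untreated EpiLC replicate 3, had medians of -0.90 and 0.40 there. In the untreated stage difference, Eef1d, with a representative transcript of 2312 bases, stood at -1.31 in a class with a median of -0.01, where 6.11% of 2096 genes were lower. Eef1g and Eef1b2 fell below their class median of -0.25, with 9.10% and 12.4% of 2153 genes lower than each, while Eef1a1 (-0.20) and Tpt1 (-0.38, class median -0.47) lay near theirs. In the shortest class, with its median of -0.71, 16.8% of 446 genes were lower than Snhg1, 25.6% lower than Snhg8 and 29.6% lower than Gas5. For the BPA change in PGCLCs, 11.7% of that class were lower than Snhg8, 43.7% lower than Snhg1 and 64.1% lower than Gas5. With a loess offset for length, an alternative chosen after seeing the data, the untreated stage changes were -1.32 for Snhg1, -1.20 for Eef1d, -1.12 for Eef1g, -0.94 for Eef1b2, -0.67 for Snhg8 and -0.65 for Gas5, all called, whereas Eef1a1 (0.02) and Tpt1 (0.06) turned in sign and were not called; 56.7% of all genes were called in that fit. Between the BPA arms the same offset left Eef1a1 (-0.07) and Tpt1 (-0.07) uncalled, called Eef2 lower (-0.20), and gave -1.34 for Snhg8 and -0.71 for Gas5, with 60.5% of all genes called.

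**Figure D3:**
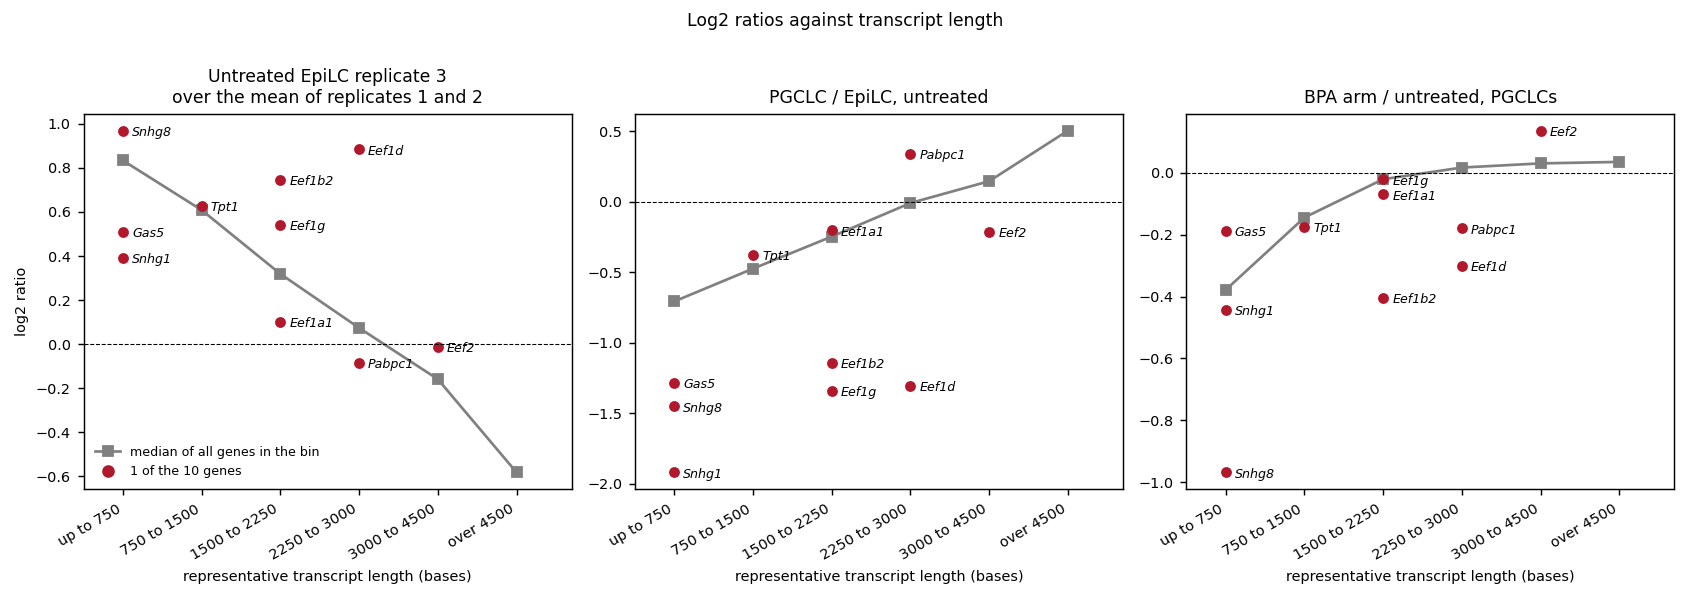
Log2 ratio (y axis) against representative transcript length in bases (x axis, 6 classes) for untreated EpiLC replicate 3 over the mean of replicates 1 and 2, for untreated PGCLCs over untreated EpiLCs, and for BPA-arm over untreated PGCLCs; grey squares are class medians over all genes and red points the 10 genes. Eef1d, Eef1b2 and Eef1g lie away from their class medians in the stage panel, and Eef1a1 and Tpt1 near theirs.

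In PGCLCs, RNA of both nucleotide exchange subunits, of Pabpc1 and of Snhg8 was lower in the BPA arm, and RNA of the main elongation factors was not called. Of the 10 genes, 4 were called lower and none higher, beside 13.9% of 16753 genes called, 5.72% lower and 8.13% higher. The libraries of the arms did not overlap, with the BPA arm lower, for 7 of the 10 genes, beside 17.3% of all genes.

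Eef1b2 had 534, 522 and 516 CPM in BPA-arm PGCLCs, against 703, 662 and 733 CPM in untreated PGCLCs, a log2 change of -0.40 ± 0.05 (adjusted p = 0.00352), or 0.756-fold. Eef1d had 201, 193 and 199.97 CPM in BPA-arm PGCLCs, against 254, 254 and 230.3 CPM in untreated PGCLCs, a log2 change of -0.30 ± 0.06 (adjusted p = 0.017). The scaffold subunit Eef1g, by contrast, overlapped between the arms, with 821, 804 and 806 CPM in BPA-arm PGCLCs, against 840.0, 804 and 842 CPM in untreated PGCLCs, and its change of -0.02 had an interval from -0.12 to 0.08. As a percentage of Eef1a1 CPM in the same library, Eef1b2 stood at 4.53% to 4.73% in BPA-arm PGCLCs and 5.62% to 5.96% in untreated PGCLCs, against 9.37% to 9.96% in BPA EpiLCs and 9.18% to 14.6% in untreated EpiLCs. The matching ranges of Eef1g were 6.98% to 7.40% and 6.83% to 6.99% in the PGCLC groups and 13.6% to 14.1% and 13.5% to 18.3% in the EpiLC groups. Eef1b2 over Eef1g was 64.0% to 65.0% in BPA-arm PGCLCs and 82.3% to 87.0% in untreated PGCLCs. It was 69.1% to 72.6% in BPA EpiLCs and 68.2% to 79.6% in untreated EpiLCs, so untreated PGCLCs stood above every other group. These ratios of CPM compare groups, not subunits, since CPM is not per length.

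Pabpc1 had 2307, 2193 and 2256 CPM in BPA-arm PGCLCs, against 2586, 2545 and 2586 CPM in untreated PGCLCs, a log2 change of -0.18 ± 0.03 (adjusted p = 0.0149). Snhg8 had 9.42, 9.84 and 8.12 CPM in BPA-arm PGCLCs, against 15.7, 17.4 and 20.96 CPM in untreated PGCLCs, a log2 change of -0.97 ± 0.16 (adjusted p = 0.0095), or 0.511-fold, from 287 to 296 counts per BPA-arm library and 493 to 658 per untreated library. Snhg1 had 33.7, 37.8 and 34.5 CPM in BPA-arm PGCLCs, against 40.4, 55.6 and 49.4 CPM in untreated PGCLCs; its change of -0.44 ± 0.13 missed the threshold (adjusted p = 0.0582), and with the length offset it was -0.15 (adjusted p = 0.475). Gas5 (-0.19 ± 0.10) overlapped between the arms. Tpt1 (-0.17 ± 0.06; -0.04 with the length offset, adjusted p = 0.706), Eef1a1 (-0.07 ± 0.04) and Eef2 (0.14 ± 0.08) were not called; Eef2 had 5349, 5155 and 4349 CPM in BPA-arm PGCLCs, against 4629.8, 4339 and 4662 CPM in untreated PGCLCs, with BPA-arm replicate 3 below the other two.

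These 4 calls do not rest equally on all libraries. Eef1b2 and Snhg8 were called whichever of the 6 PGCLC libraries was left out. Eef1d was not called without untreated replicate 1 or 2 or BPA-arm replicate 1 or 2 (adjusted p = 0.0516, 0.0581, 0.0756 and 0.0934), and Pabpc1 was not called without untreated replicate 3 or BPA-arm replicate 2 (adjusted p = 0.0559 and 0.0823). Without BPA-arm replicate 3 Eef2 was called higher, at 0.23 (adjusted p = 0.00654), and without untreated replicate 1 Snhg1 was called lower, at -0.57 (adjusted p = 0.0337). In 1 fit of all 12 libraries, which includes untreated EpiLC replicate 3, only Snhg8 was called, beside 8.97% of all genes. With the length offset all 4 stayed called, beside 12.5% of all genes, and Snhg8 changed by -0.59. Summed CPM of 13 endoderm markers, all listed in the BPA arm and 12 in untreated cells (Trf was not), was 5139 to 10784 in BPA-arm PGCLCs, against 889.8 to 1401 in untreated PGCLCs. The 6 germ cell markers summed to 589 to 650.1 against 703 to 817 CPM, and the 6 EpiLC markers to 424 to 480 against 385 to 415 CPM. Mesoderm markers overlapped, at 147 to 183 against 136 to 169 CPM. Markers of 3 of these kinds thus moved with the arms, and their part in the changes was not tested.

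In EpiLCs, none of the 10 genes was called under BPA, by edgeR, DESeq2 or limma, and none had an unadjusted p under 0.05. Over all 15252 genes edgeR called 0% (118 genes had an unadjusted p under 0.05), DESeq2 16 genes (0.105%) and limma voom 0. Those 118 are fewer than that threshold gives on average with no change, so the test was conservative here. Without untreated EpiLC replicate 2 or 3 the number was 467 or 472, and edgeR still called 0. The lack of calls therefore does not show a lack of response. The groups overlapped for all 10 genes, whereas 2.5% of all genes were higher and 3.53% lower without overlap. Changes ran from -0.29 for Eef1d to 0.08 for Pabpc1, with 95% intervals reaching from -0.86 to 0.37. Eef1b2 had 1328, 1196 and 1340.5 CPM in BPA EpiLCs, against 1286, 1234 and 2113 CPM in untreated EpiLCs, so the groups overlapped, with replicate 3 the highest. Without that library the change of Eef1b2 was 0.03 ± 0.07, that of Eef1d 0.05 and that of Snhg8 0.13, against -0.24, -0.29 and -0.25 with it; none was called.

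The difference between the BPA change in PGCLCs and that in EpiLCs was tested as an interaction over the 12 libraries. None of the 10 genes was called by edgeR, where 1.32% of 17608 genes were, 1.01% higher and 0.312% lower; Pabpc1 (-0.26, unadjusted p = 0.0148) and Snhg1 (-0.45, unadjusted p = 0.0449) were the 2 members with an unadjusted p under 0.05. DESeq2 called Pabpc1, beside 5.09% of all genes, and limma voom none. Without untreated EpiLC replicate 3, Eef1b2 (-0.41 ± 0.09, adjusted p = 0.0343) and Snhg8 (-1.07 ± 0.18, adjusted p = 0.00983) were called lower, and 4.06% of genes were called, 2.45% higher and 1.61% lower. With the length offset Pabpc1 and Snhg8 were called, beside 2.83% of all genes. With all libraries, edgeR did not show the changes in PGCLCs to differ from those in EpiLCs.

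Genes around the 10 members in the translation pathway were described by their counts. Between untreated stages, all 8 snoRNA ribonucleoprotein genes, 12 of 15 other snoRNA host genes, 22 of 29 initiation factor genes, 11 of 19 other elongation and release factor genes, 13 of 20 other TOP mRNAs and 55 of 78 cytosolic ribosomal protein genes were called lower in PGCLCs, beside 25.2% of all genes. Higher in PGCLCs were none of the snoRNA ribonucleoprotein genes and other snoRNA hosts, 2 initiation factor genes, 3 other elongation genes, 1 other TOP mRNA and 2 ribosomal protein genes, beside 30.4% of all genes. Snu13 (-1.596) and Nop56 (-1.57) are core proteins of the snoRNA particles, and Snhg4 (-2.66) and Zfas1 (-1.95) are snoRNA hosts like Gas5. Pabpc4 (-1.30), a relative of Pabpc1, and Npm1 (-0.94), a nucleolar chaperone, led the other TOP mRNAs. Eif2b3 (-1.27), an exchange factor subunit for eIF2, fell and Eif4g3 (1.46), a scaffold of the cap-binding complex, rose; Eef1e1 (-0.87), an auxiliary factor of the aminoacyl-tRNA synthetase complex, and Dph2 (-1.23), of the pathway that makes the diphthamide residue of eEF2, fell. Rpl39 (-1.67) fell and Rpl23a (1.25) rose among the ribosomal protein genes, 2 genes of a family with many processed pseudogenes, so their counts are uncertain. Without untreated EpiLC replicate 3, 53 ribosomal protein genes were lower and 7 higher, 15 other TOP mRNAs lower and 2 higher, 22 initiation factor genes lower and 3 higher, and 12 other elongation genes lower and 2 higher; 10 other snoRNA hosts and all 8 snoRNA ribonucleoprotein genes were lower and none higher. With the length offset, 43 ribosomal protein genes were lower and 16 higher, with a median of -0.29 in place of -0.80, 9 of 14 other snoRNA hosts were lower, and all 8 snoRNA ribonucleoprotein genes remained lower. Without untreated EpiLC replicate 1, 9 other elongation and release factor genes were called in either direction, against 14.

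Regulators of the pathway were counted as well. Of 16 mTORC1 and TOP regulator genes, 1 was called lower and 7 higher in untreated PGCLCs than in untreated EpiLCs, among them Mtor (0.83), the kinase itself, and Tsc1 (0.93), part of its inhibitory complex. Of 10 nonsense-mediated decay factor genes, 3 were lower and 4 higher, among them Upf2 (0.91), which acts in the decay of mRNAs with early stop codons. Without untreated EpiLC replicate 3, 2 regulators were lower and 9 higher, and 4 decay factors were lower and 4 higher. With the length offset, 4 regulators were lower and 5 higher, with a median of -0.11 in place of 0.28, and 3 decay factors were lower and 2 higher; no difference between lists was tested. These changes were measured on RNA and show nothing of kinase activity or decay.

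Between PGCLC arms, 63 of 78 ribosomal protein genes and 6 of 8 snoRNA ribonucleoprotein genes were called lower in the BPA arm, against 5.72% of all genes, and 1 ribosomal protein gene was higher. Rps29 (-1.17), Rpl21 (-1.02), Nhp2 (-0.55) and Nop58 (-0.39) had the smallest p of these lists. Nhp2 and Nop58 are core proteins of the H/ACA and C/D classes of snoRNA particle. Counts of Rps29 and Rpl21 are uncertain too, as members of a family with many processed pseudogenes. The summary row for reads aligned to more than 1 place also differs between these arms. Lower were also 5 of 20 other TOP mRNAs, led by Vim (-1.04), an intermediate filament protein, and Npm1 (-0.22), 6 of 29 initiation factor genes (2 higher), led by Eif1ax (-0.67), which acts in start codon scanning, and Eif2s2 (-0.33), a subunit of the initiator tRNA carrier eIF2, and 2 of 18 tested elongation and release factor genes, Eif5a (-0.27) and Eef2kmt (-0.63), which methylates eEF2. Of 15 other snoRNA hosts only Snhg9 was called, a gene unlisted in all 3 BPA-arm libraries, where it can have at most 9 counts, and at 16, 63 and 29 counts in untreated PGCLCs. It passed the filter on low counts only through the untreated libraries, with unlisted values entered as 0, so nothing is read from its call. Of the decay factors Upf1 (0.27) was higher and Upf3b (-0.50) lower, with 2 higher and 1 lower in all; of the regulators, 1 was lower, Ddit4 (-0.55), an inhibitor of mTORC1, and 1 higher, Eif4ebp2 (0.30), a repressor of cap-dependent initiation. In the fit of all 12 libraries the called genes, in either direction, were 11 ribosomal protein, 2 snoRNA ribonucleoprotein, 1 other TOP and 3 initiation factor genes. With the length offset 39 ribosomal protein genes were lower and 1 higher, with a median of -0.20 in place of -0.42. In that fit 4 of 8 snoRNA ribonucleoprotein genes were lower, with a median of -0.32 in place of -0.37. Lower in it were also 5 other TOP mRNAs, 8 initiation factor genes (2 higher) and 3 elongation and release factor genes. Without BPA-arm replicate 1 or 2, 3 snoRNA ribonucleoprotein genes, 4 initiation factor genes and 1 other TOP mRNA were called in each fit; without untreated replicate 3, 1 other TOP mRNA was called, and without untreated replicate 2, 3 were. Decay factor calls were 0 or 1 and regulator calls 0 without any 1 of untreated replicates 1, 2 and 3 and BPA-arm replicates 1 and 2; elongation and release factor calls were 1 without BPA-arm replicate 1 or 2 and 4 without BPA-arm replicate 3.

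**Figure D4:**
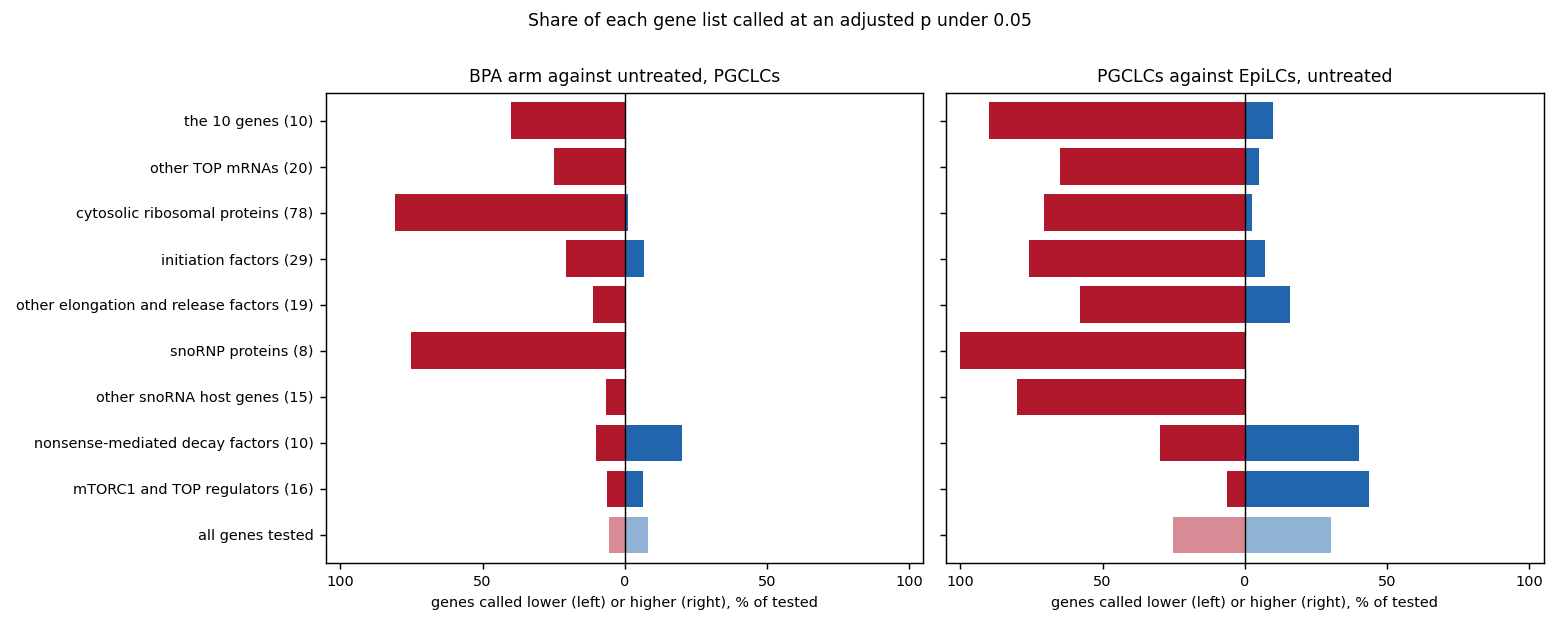
Share of the tested genes of each list, in %, called lower (red, to the left) or higher (blue, to the right) at an adjusted p under 0.05, for BPA-arm against untreated PGCLCs and for untreated PGCLCs against untreated EpiLCs; numbers in brackets are genes tested between stages (18 elongation and release factor genes between PGCLC arms), and the pale bars are all genes. The 10 genes reach 40% lower between PGCLC arms and 90% lower between stages, beside 5.72% and 25.2% of all genes.

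Over the 12 libraries, the genes whose log2 CPM followed the mean of the 7 protein-coding members most closely were Rpl5 (Pearson r = 0.998), Rplp0 (0.997), Cct7 (0.996), Rps18 (0.996) and Rpl7 (0.996), 4 ribosomal protein genes and a subunit of the CCT chaperonin. That mean does not stand for each member. Pabpc1 had r from -0.82 to -0.56 with the other protein-coding members, and Eef2 had 0.53 to 0.66 with those other than Pabpc1. Rpl5 averaged 712 ± 40.2 CPM in BPA-arm PGCLCs and 859 ± 39.7 in untreated PGCLCs, against 1600.2 ± 67.7 in BPA EpiLCs and 1929 ± 593 in untreated EpiLCs (SD, n = 3 each). The 12 points, untreated EpiLC replicate 3 among them, share their libraries, their depth and the split between stages, and 936 of 17598 genes had an r above 0.95, so the likeness is a description of these libraries.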

How the data were processed

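The authors deposited gene counts, 1 file per library, as whole reads per Ensembl gene, with genes under 10 counts left out. Per the submitters' processing notes, the tools were STAR, HTSeq, FastQC and bcl2fastq 2.19.1.403, and the build was mm10; the sources used here do not say if strand was used in counting these strand-specific libraries. The authors also deposited CPM tables, 1 per stage, used only in an alternative within each stage. Unlisted genes were read as 0. Low counts were removed by filterByExpr, TMM gave the scaling, and genes were tested by the edgeR 4.0.16 quasi-likelihood test (R 4.3.3) with Benjamini-Hochberg adjustment over all genes, called at an adjusted p under 0.05. Each BPA effect was fitted within its stage (6 libraries), and stage differences and the interaction in 1 fit of 12 libraries. Every adjusted p is from edgeR unless another tool is named. Printed CPM use the factors of the 12 libraries. Alternatives were RLE or no scaling factors, scaling without ribosomal protein genes and members, other filters, DESeq2 1.42.0, limma 3.58.1 (voom, and trend on deposited CPM plus 1), a replicate block, 1 fit of 12 libraries for BPA effects, each library left out, and, chosen after seeing the data, a loess offset for transcript length. The script was tested on simulated data. The members and lists were chosen with earlier results of these data known. Named were all members, up to 2 called members of each list with the smallest p where its counts are given, and the 5 genes most like the members; 1 gene that this rule names is not reported here. Symbols, coordinates and lengths came from GENCODE M21. Same-numbered replicates did not deviate together (correlations from -0.02 to 0.06), so numbers were not treated as pairs.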

Additional observations from a re-analysis of the deposited data

Results flagged for a closer look

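A summary row of reads aligned to more than 1 place, outside the gene counts, was present in 4 of the 12 count files. As a percentage of gene counts it was 0.533% in replicate 1, 0.539% in replicate 2 and 0.618% in replicate 3 of BPA-arm PGCLCs, and 12.3% in replicate 2 of BPA EpiLCs; the other 8 files, those of untreated PGCLCs and untreated EpiLCs among them, have no such row. The part of such reads in the results was not tested.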

How the results depend on the processing

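Called members (4 in PGCLCs and 0 in EpiLCs under BPA, 10 between untreated stages, 8 between BPA arms and 0 in the interaction) stayed within 1.5 times under the other scalings, filters and tools, with these exceptions. The fit of all 12 libraries called 1 member in PGCLCs, and in the interaction DESeq2 called 1 and the length offset 2. Leaving out 1 library gave 2 to 5 called members in PGCLCs and 0 to 2 in the interaction. Over all genes, DESeq2 called 16 in EpiLCs and 897 in the interaction, limma voom 141, the length offset 497 and the replicate block 150 in the interaction, against 232. Leaving out 1 library gave 668 to 3206 genes in PGCLCs, against 2321, and 83 to 767 in the interaction. With the replicate block 4, 0, 9, 8 and 0 members, and 1618, 0, 9106, 9441 and 150 genes in all, were called in PGCLCs, EpiLCs, untreated stages, BPA arms and the interaction, and Tpt1 between untreated stages was the only member call lost (adjusted p = 0.0594). Among uncalled EpiLC changes, the length offset turned the sign of Eef1a1 (0.030), Eef2 (-0.00043), Tpt1 (0.069), Gas5 (0.14) and Snhg8 (0.0093), and Snhg1 turned under RLE factors (-0.0055), DESeq2 (-0.0053) and the fit of 12 libraries (-0.0079). The offset also turned Gas5 in PGCLCs (0.12) and, between untreated stages, Eef1a1 (0.015) and Tpt1 (0.059); Eef1d in the interaction turned under RLE factors (0.0046) and DESeq2 (0.0049). With 1 library left out, EpiLC changes spanned -0.37 to 0.029 for Eef1b2, -0.45 to 0.048 for Eef1d, -0.0093 to 0.059 for Eef2, -0.21 to 0.12 for Tpt1, -0.18 to 0.11 for Gas5, -0.10 to 0.13 for Snhg1 and -0.41 to 0.13 for Snhg8. In the interaction they spanned -0.039 to 0.016 for Eef1a1, -0.33 to 0.17 for Eef1d, -0.27 to 0.052 for Tpt1 and -0.28 to 0.0068 for Gas5. Between PGCLC arms, DESeq2 called 8 other TOP mRNAs, 14 initiation factor, 6 other elongation, 2 other snoRNA host, 6 decay factor and 4 regulator genes, and the fit of 12 libraries 1 decay factor gene and 0 regulators. The cause of these shifts was not tested. With 3 libraries a group, small changes of the snoRNA hosts, at 287 counts or more, are limited by the spread between replicates.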
